A study of Mus musculus with 282 samples.

Results

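The 9 genes described here are 7 keratins of the prostate lineages, the transcription factor gene Trp63 and the sulfotransferase gene Sult5a1. They were taken by name, with their Ensembl identifiers matched to symbols, from the 48440 gene rows of the count tables, and all 9 had reads in every group. Krt5, Krt14, Krt15, Krt17 and Trp63 are the basal genes of the set. Krt8, Krt18 and Krt19 are its luminal keratins, and Sult5a1 belongs to neither class. The cells, 282 in all, came from prostates of POET3 males, a strain in which a prostate-specific promoter drives ovalbumin so that an immune response can be directed at the gland. All cells carried that background and were sorted for basal prostate stem cells with a viability dye and antibodies to Sca-1, CD49f, CD45 and CD31. The conditions were inflamed and naive prostates, each captured in batches 2 and 3, with capture on the C1 microfluidic instrument. The chemistry marks no single molecules, and counts are of reads. The sources used here do not state the age or number of the animals, how inflammation was induced, or the gates of the sort.

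Keratins are the filament proteins of epithelial cells, and a filament needs a type I keratin paired with a type II keratin. In the prostate, basal cells are recognised by Krt5 (type II) with Krt14 (type I) and by p63, the product of Trp63, which maintains the basal and stratified epithelial state. Luminal cells, which secrete the prostatic fluid, are recognised by Krt8 (type II) with Krt18 (type I). Krt15 and Krt17 are type I keratins of basal cells, and Krt17 is also induced in wounded and stressed epithelium. Krt19 is a small type I keratin of simple epithelia and of cells with features of both layers.

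Cells needed at least 1000 detected genes and 50000 counts to be kept. This left 268 cells, 80 and 76 inflamed cells and 53 and 59 naive cells of batches 2 and 3. Throughout, a pair of values of one condition is given for batch 2 and then for batch 3. Their counts were added up within each condition and batch, giving 4 sums of 79225330 and 78459122 counts for inflamed cells and 52061533 and 50105953 counts for naive cells. The median cell had 1001872 and 998864 counts in inflamed sets and 971069 and 840863 counts in naive sets, and 4683 and 4108 against 4739 and 3432 detected genes. The mitochondrial share of a cell's counts had a median of 3.73% and 2.82% in inflamed cells, against 2.67% and 2.26% in naive cells. All 8 leukocyte markers, Ptprc included, had 0 counts in every sum. The basal hemidesmosome gene Dst, named after its values were seen, had reads in 100% of the cells of every set. Trp63, also a basal marker, had reads in 66.25% and 76.3% of inflamed cells and in 100% and 79.7% of naive cells. No doublet caller was run.

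On GRCm38, Krt14 (chr11:100203162-100207548), Krt15 (chr11:100131758-100135928), Krt17 (chr11:100256217-100261029) and Krt19 (chr11:100140810-100148665) lie in the type I cluster, all on the minus strand. Krt5 (chr15:101707070-101712898) and Krt8 (chr15:101996698-102004482) lie in the type II cluster on the minus strand. Krt18 (chr15:102028180-102032027, plus strand), although type I, sits beside Krt8. Trp63 is at chr16:25683763-25892102 on the plus strand and Sult5a1 at chr8:123140192-123158315 on the minus strand. All 9 are protein coding, and counts per gene do not separate the isoforms of Trp63.

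Keratin genes resemble each other, and reads of 50 bases from one can match another. The runs below are shown because each is an exact match, over the length of a read, between a member and another gene with a row in the tables. All bases of a run are common to both genes, so none is set in capitals.
Krt8 exon 1, chr15:102004190-102004239, minus strand, GRCm38, also in the pseudogene Krt8-ps on chromosome 7: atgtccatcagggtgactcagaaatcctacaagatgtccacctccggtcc
Krt14 exon 1, chr11:100207406-100207455, minus strand, GRCm38, also in Krt16: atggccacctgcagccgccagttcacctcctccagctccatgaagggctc
Krt14 exon 3, chr11:100204996-100205045, minus strand, GRCm38, also in Krt17: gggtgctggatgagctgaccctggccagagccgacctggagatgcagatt
Krt5 exon 1, chr15:101712455-101712504, minus strand, GRCm38, also in Krt6a: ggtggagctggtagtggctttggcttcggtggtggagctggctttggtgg

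Of all 50-base windows of a member's annotated transcripts, 29.7% of those of Krt8 occurred in the transcripts of another gene, most of them in Krt8-ps. The Krt8-ps transcript matched Krt8 with 98.6% identity over 941 bases. The share was 13.9% for Krt14, chiefly through Krt16 (11.01% of its windows) and Krt17 (3.22%), and 12.2% for Krt5, chiefly through Krt6a (6.98%). It was 3.99% for Krt17, 1.49% for Sult5a1, 0.72% for Krt18 and 0.64% for Krt15. No window of Trp63 or Krt19 occurred elsewhere, so their counts did not share reads of this kind. The sources used here do not state how reads with several matches were counted, so Krt8, Krt14 and Krt5 are the members whose counts are least certain. Reads also could not be assigned to a strand, and exons of Krt5 overlap the gene Gm44323 on the opposite strand. Those of Krt8 overlap Gm36026, which has no row among the genes counted.

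The comparison of inflamed with naive sums asks which lineage genes differ between inflamed and uninflamed basal cells. Krt19 and Krt17 were higher in both batches, with the largest fitted differences of the members that were higher, and Sult5a1 was lower in both by the widest margin relative to its error. Krt15 was also higher in both, by more than Krt17 in batch 3, and Krt5 and Trp63 were also lower in both. The luminal pair Krt8 and Krt18, and Krt14, went one way in batch 2 and the other way in batch 3. The test was edgeR's quasi-likelihood test with the batch in the model, across 14713 genes, with p-values adjusted by Benjamini-Hochberg over all of them. It called none of the 9 members, as it called 0 genes (0%) in all, with a lowest adjusted p of 0.568. At an unadjusted p under 0.05, 2 of the 9 were higher and 1 was lower, beside 5.04% of all tested genes higher and 3.23% lower. The members were chosen with earlier results of these data known, so this and all other counts of members are a description. DESeq2, run as an alternative, called 927 of the 13001 genes to which it gave an adjusted p higher (7.13%), Krt19 among them, and 534 lower. Both batches placed 3 of the 9 members higher and 3 lower, against 30.9% and 28.3% of all tested genes, and the median log2 fold change was -0.06 over the 9 and 0.10 over all tested genes. Nothing in the labels says whether the batches hold separate animals, so p-values measure the spread between these sums, which may be technical. With 2 sums per condition, an exact two-sided permutation test of a single gene that ignores the batch could not give a p below 0.333.

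**Figure D1:**
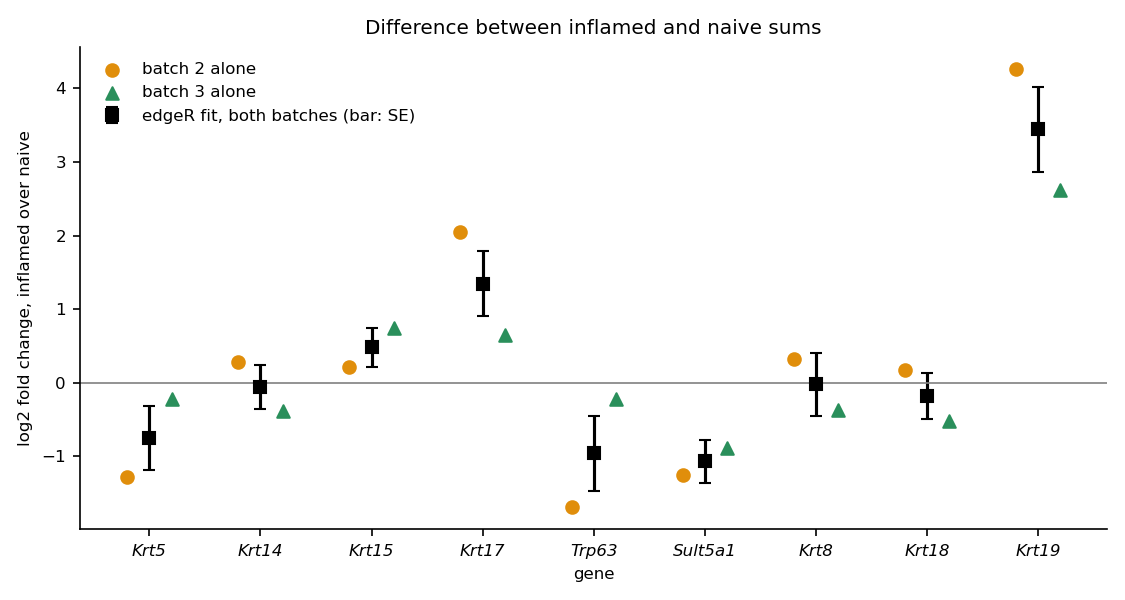
Log2 fold change of each of the 9 genes (x axis), inflamed over naive (y axis). Squares are the edgeR fit over both batches with its SE, circles batch 2 alone and triangles batch 3 alone. Krt19 lies highest at 3.44 ± 0.58, and the markers of Krt14, Krt8 and Krt18 fall on both sides of 0.

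Values of sums are given as CPM, counts per 1000000 counts of a library whose size is corrected with a TMM factor. Krt5, the basal type II keratin, had 139.3 and 169.9 CPM in inflamed sums, against 338.9 and 198.6 CPM in naive sums. Both inflamed sums were below both naive sums, although the inflamed and naive sums of batch 3 were close. The log2 fold change was -0.75 ± 0.44 (SE, n = 2 each, edgeR adjusted p = 0.71), with -1.28 in batch 2 and -0.22 in batch 3. The median cell of batch 2 had 73.8 CPM in the inflamed set and 252 CPM in the naive set. In batch 3 the order was the other way round, with 130 CPM in the median inflamed cell and 60.9 CPM in the median naive cell, and 82.9% of the inflamed cells there reached 10 CPM, beside 64.4% of the naive cells.

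Krt14, the type I partner of Krt5, had 1180 and 1027 CPM in inflamed sums, against 976 and 1347 CPM in naive sums. The naive sums enclosed the inflamed ones. Its log2 fold change was -0.06 ± 0.30 (SE, n = 2 each, edgeR adjusted p = 1), 0.27 in batch 2 and -0.39 in batch 3. The mean of the within-batch values turned positive, at 0.034, when the cell with most Krt14 reads was left out of each sum. In the naive set of batch 3 that 1 cell held 15.7% of the Krt14 reads.

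Krt15, a basal type I keratin, had 3082 and 4002 CPM in inflamed sums, against 2651 and 2389 CPM in naive sums. Both inflamed sums were above both naive sums. The log2 fold change was 0.48 ± 0.26 (SE, n = 2 each, edgeR adjusted p = 0.69), 0.22 in batch 2 and 0.74 in batch 3. Krt15 was the member spread most evenly over cells: every kept cell had reads, and from 91.5% to 100% of the cells of a set reached 10 CPM.

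Krt17, the keratin of stressed epithelium, had 6864 and 5813 CPM in inflamed sums, against 1668 and 3704 CPM in naive sums. The groups did not overlap, and the naive sums were further apart than the inflamed ones. It was 4.11-fold higher in batch 2 and 1.57-fold higher in batch 3, and the fitted log2 difference was 1.35 ± 0.44 (SE, n = 2 each, edgeR adjusted p = 0.57; DESeq2 adjusted p = 0.064). Its unadjusted p in edgeR was 0.043. The single-cell levels differed most at the low end. The lower quartile over cells was at 2669 and 2471 CPM in the inflamed sets, against 48.97 and 41.8 CPM in the naive sets. The highest cells of the conditions overlapped in level, with 32750 and 19790 CPM in inflamed sets and 10590 and 27370 CPM in naive sets. Naive Krt17 reads were also held by few cells, of which 6 and 7 supplied at least 50%, whereas 16 cells did so in each inflamed set.

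Trp63 had 83.01 and 294 CPM in inflamed sums, against 269 and 344.5 CPM in naive sums. The inflamed sum of batch 2 was below all others, and that of batch 3 lay between the naive sums. The log2 fold change was -0.96 ± 0.51 (SE, n = 2 each, edgeR adjusted p = 0.69), -1.70 in batch 2 and -0.23 in batch 3, and it was -0.05 without the inflamed sum of batch 2. Reads of Trp63 came from few cells: 1 cell held 22.6% of those of inflamed cells and 1 cell 24.1% of those of naive cells in batch 3. In batch 2, 36.3% of inflamed cells and 86.8% of naive cells reached 10 CPM. In batch 3 the shares were 47.4% of inflamed and 44.1% of naive cells, so the gap seen in batch 2 was not seen there.

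Sult5a1, of the cytosolic sulfotransferase family, had 398 and 328 CPM in inflamed sums, against 952 and 608 CPM in naive sums. Both inflamed sums were below both naive sums, and Sult5a1 had the smallest difference between batches of the 3 members that were lower in both. Its level was lower by 2.39-fold (batch 2) and 1.85-fold (batch 3), and the fitted log2 difference was -1.07 ± 0.29 (SE, n = 2 each, edgeR adjusted p = 0.57; DESeq2 adjusted p = 0.14). Its unadjusted p in edgeR was 0.025. The median cell had 230 and 41.8 CPM in inflamed sets, against 637 and 186.7 CPM in naive sets. Reads of Sult5a1 were found in 92.5% and 73.7% of inflamed cells, against 100% and 94.9% of naive cells. Of its 20 relatives of the family, only Sult2b1 passed the low-count filter, at 1.65 and 7.29 CPM in inflamed sums and 1.12 and 0 CPM in naive sums.

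Krt8, the luminal type II keratin, had 120.8 and 112.8 CPM in inflamed sums, against 96.8 and 146.01 CPM in naive sums. The naive sums enclosed the inflamed ones. Its log2 fold change was -0.03 ± 0.43 (SE, n = 2 each, edgeR adjusted p = 1), 0.32 in batch 2 and -0.37 in batch 3, and its sign changed with upper-quartile scaling (0.02). The pseudogene Krt8-ps had 30.3 and 31.4 CPM in inflamed sums and 28.8 and 43.96 CPM in naive sums, a count equal to 25.1% to 30.1% of that of Krt8. Adding those reads to Krt8, an alternative chosen after seeing the data, gave -0.07 ± 0.40.

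Krt18, the type I partner of Krt8, had 924.5 and 850 CPM in inflamed sums, against 824 and 1226 CPM in naive sums. Again the naive sums enclosed the inflamed ones. The log2 fold change was -0.18 ± 0.31 (SE, n = 2 each, edgeR adjusted p = 0.96), 0.17 in batch 2 and -0.53 in batch 3, and it was 0.15 without the naive sum of batch 3. With the mean of log2(CPM + 1) over cells in place of summed counts, which gives few high cells less weight, limma gave 0.67 for Krt18 and 0.49 for Krt8, neither past the threshold (adjusted p = 0.31 and 0.46). In the sums the pair did not differ between conditions beyond the spread between batches, and the direction depended on how cells were weighted.

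Krt19, the luminal keratin of mixed-state cells, had 584 and 619 CPM in inflamed sums, against 30.3 and 100.9 CPM in naive sums. The inflamed sums were close to each other and far above both naive sums. It was 19.2-fold higher in batch 2 and 6.14-fold higher in batch 3, and the fitted log2 difference was 3.44 ± 0.58 (SE, n = 2 each, edgeR adjusted p = 0.57). Its unadjusted p in edgeR was 0.0055. DESeq2 gave an adjusted p of 1.13e-07 for the same sums. At 10 CPM or more, Krt19 was found in 80% and 80.3% of inflamed cells, against 22.6% and 18.6% of naive cells. In the naive sets the 2 highest cells supplied at least 50% of the Krt19 reads, and the top cell alone 42.6% and 35.5%. Without the cell with most reads in each sum, the inflamed sums had 558 and 584 CPM and the naive sums 17.7 and 66.4 CPM. The groups did not overlap for Krt15, Krt17 and Krt19 (higher) or for Krt5 and Sult5a1 (lower), whereas 24.3% of all tested genes had both inflamed sums above both naive sums and 21.3% had both below.

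**Figure D2:**
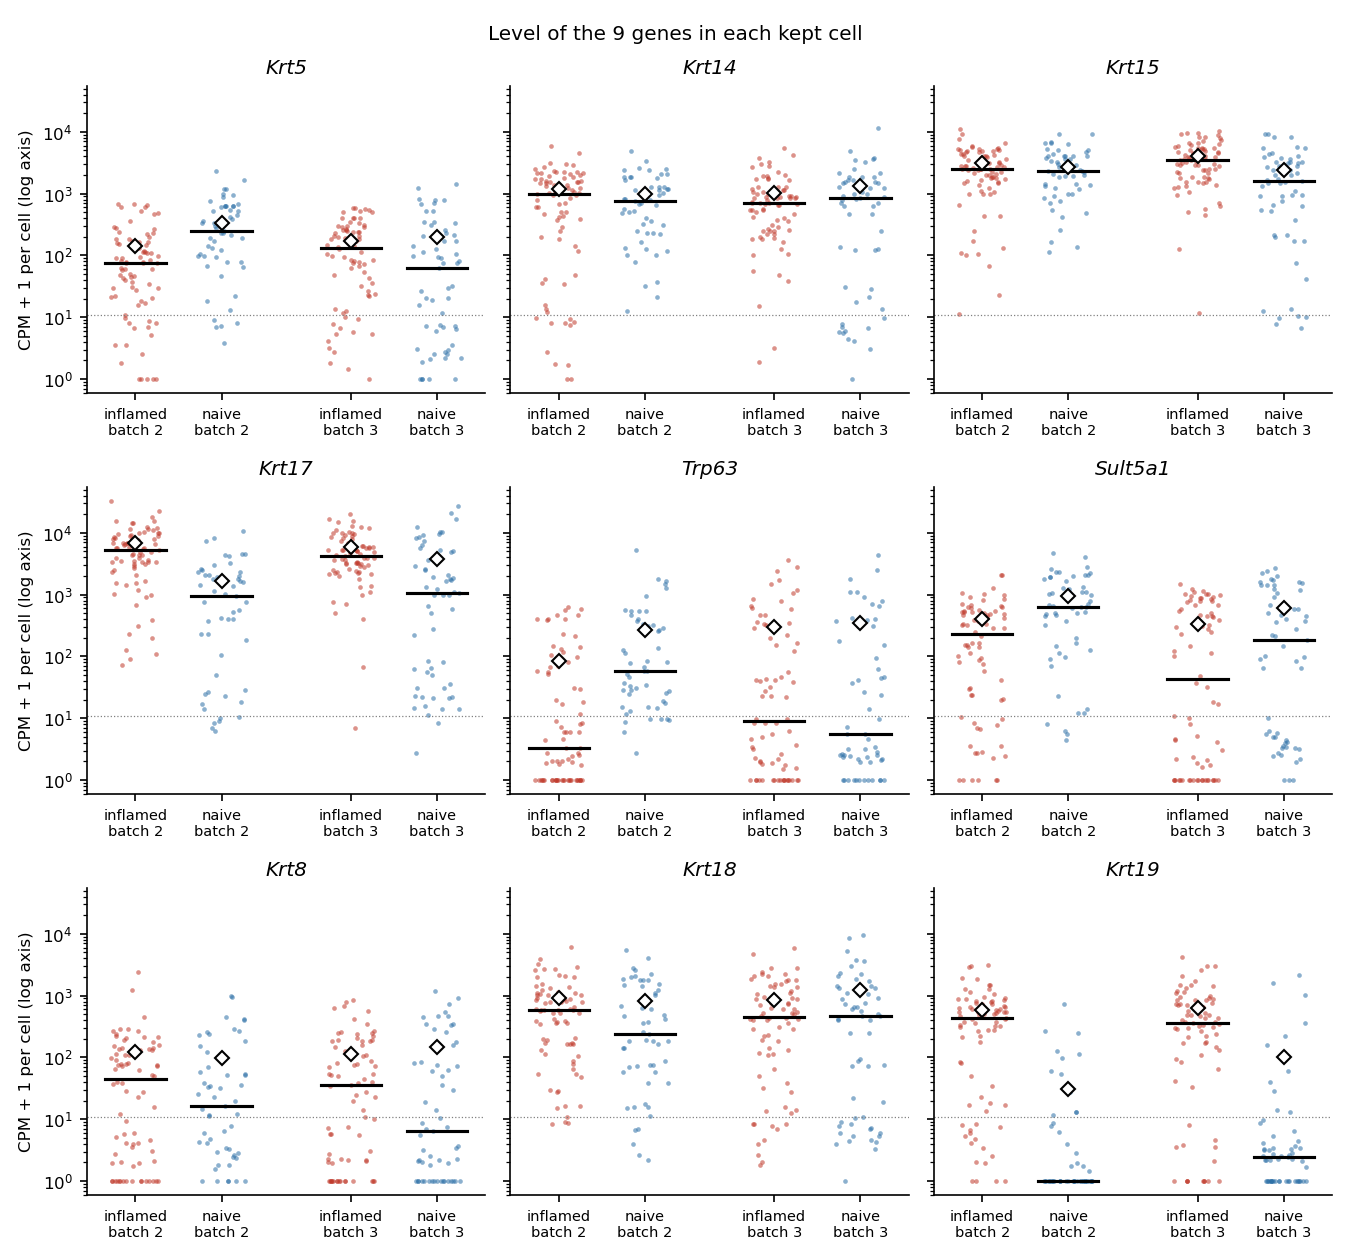
Level of each of the 9 genes in each of the 268 kept cells, as CPM + 1 on a log axis, by condition and batch. Points are cells, bars medians over cells, diamonds the CPM of the sum, and the dotted line marks 10 CPM. The Krt19 points of naive cells lie mostly at the floor, with medians of 0 and 1.49 CPM, against 429 and 364.5 CPM in inflamed cells.

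The uroplakin gene Upk1b was higher in both batches, as Krt19 was. The list of 8 markers of seminal vesicle and urothelium, of which it is one, summed to 423 and 429 CPM in inflamed sums and 78.7 and 162.2 CPM in naive sums, and Upk3a was at 0 in all sums. Most of the inflamed level was Upk1b, at 355 and 429 CPM in inflamed sums against 67.1 and 33.8 CPM in naive sums, whereas the other uroplakin genes Upk1a and Upk2 did not exceed 0.292 CPM. The seminal vesicle gene Svs2 had 29.6 and 0 CPM in inflamed sums, against 2.41 and 40.04 CPM in naive sums, and Svs4, Svs5 and Pate4 reached at most 56.6 CPM in a sum. The part of such cells in the Krt19 difference was not tested. The 8 stromal markers summed to 0.546 and 36.5 CPM in inflamed sums and 71.5 and 0.442 CPM in naive sums, with Pdgfrb, Myh11 and Des at 0 in all sums, so they were high in the naive sum of batch 2, where Trp63 and Krt5 stood furthest above the inflamed sum. Of these, Pdgfra had 0 and 1.22 CPM in inflamed sums, against 36.2 and 0.021 CPM in naive sums. Acta2 had 0.495 and 35.2 CPM in inflamed sums, against 31.8 and 0.274 CPM in naive sums, and was read in 77.4% of the naive cells of batch 2. Their part in those differences was not tested. The 6 endothelial markers stayed at or below 3.26 CPM in sum, and 4 of the 6 neuroendocrine markers, Chga among them, were at 0 in all sums. The whole neuroendocrine list summed to 0.114 and 6.96 CPM in inflamed sums and to 0 CPM in both naive sums, chiefly through Calca, which was read in 7.5% and 9.21% of inflamed cells and in no naive cell.

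Levels of different genes are compared only per kilobase of annotated exon. In inflamed sums Krt17 stood highest, at 4425 and 3748 CPM per kilobase, followed by Krt15 at 1744 and 2265. Krt14 (671 and 584) and Krt18 (643 and 591) followed and did not differ beyond the spread between batches. Krt19 came next at 315 and 334 CPM per kilobase. Sult5a1 (90.2 and 74.3), Krt5 (63.4 and 77.4) and Krt8 (61.7 and 57.6) formed a lower group whose order changed between batches, and Trp63 was lowest at 9.89 and 35.03. In naive sums Krt15 (1500 and 1352 CPM per kilobase) and Krt17 (1075 and 2388) exchanged the first place between batches, Krt18 (574 and 853) and Krt14 (555 and 766) followed, and Krt19 stood at the foot of the order with 16.4 and 54.4 CPM per kilobase, beside Trp63 with 32.04 and 41.1.

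Within each filament pair the type I partner was the more abundant. Krt18 exceeded Krt8 per kilobase by 10.4-fold and 10.3-fold in inflamed sums and by 11.6-fold and 11.4-fold in naive sums, a ratio that varied little over the 4 sums. Krt14 exceeded Krt5 by 10.6-fold and 7.55-fold in inflamed sums and by 3.60-fold and 8.48-fold in naive sums, so the naive sum of batch 2 stood apart from the others. Over all keratin genes, type I keratins together stood 31.8-fold and 27.1-fold above type II keratins in inflamed sums and 17.5-fold and 28.2-fold above them in naive sums. These ratios are of reads, and how evenly the amplification covered transcripts of different keratins was not tested. The 7 keratins made up 94.2% and 94.3% of the keratin level per kilobase in inflamed sums, against 98.9% and 99.3% in naive sums.

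The rest of the keratin level came from other members of the family, of which 13 of 46 passed the low-count filter. Of those, 10 were higher and 1 lower in both batches, none was called, and their median log2 fold change was 4.02, beside 0.10 over all tested genes. Genes that passed the filter through the inflamed sums alone had to be higher there. That selection lifts both the count and the median, so both are a description and neither measures a rise of the family. Krt16, which shares windows with Krt14 and is induced in wounded epidermis, had 78.8 and 35.4 CPM in inflamed sums, against 0.018 and 1.37 CPM in naive sums. Krt6a, which shares windows with Krt5, had 162.2 and 47.2 CPM in inflamed sums, against 0.089 and 0.316 CPM in naive sums. Krt5 was lower in both batches and Krt14 was higher in batch 2 and lower in batch 3. How many reads were exchanged between these genes was not tested. Krt7, a keratin of simple and transitional epithelia, had 154.1 and 142.9 CPM in inflamed sums, against 32.1 and 84.7 CPM in naive sums. Of the keratins of differentiating or hair epithelium, Krt13 had 259 and 343 CPM in inflamed sums against 14.7 and 2.13 CPM in naive sums, and Krt4 had 68.1 and 223 CPM in inflamed sums against 7.51 and 33.01 CPM in naive sums. Krt23 had 221.9 and 118.2 CPM in inflamed sums against 14.5 and 6.17 CPM in naive sums. Krt75 (29.9 and 26.6 CPM inflamed, 9.43 and 0.042 CPM naive), Krt32 (15.9 and 5.20 CPM inflamed, 0.638 and 1.66 CPM naive) and Krt39 (11.2 and 17.2 CPM inflamed, 12.4 and 0.042 CPM naive) were low, and Krt10, the keratin of the upper epidermis, had 2.75 and 4.01 CPM in inflamed sums against 9.32 and 10.4 CPM in naive sums.

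Basal and luminal keratins were read together in nearly all single cells of both conditions. At least 1 read of any of Krt5, Krt14, Krt15 and Krt17 and at least 1 read of any of Krt8, Krt18 and Krt19 were found in 80 of 80 and 76 of 76 inflamed cells and in 53 of 53 and 58 of 59 naive cells. With 10 CPM as the limit for each, the shares were 98.75% and 97.4% of inflamed cells and 92.5% and 81.4% of naive cells. Beside these shares, 10 genes of other organs, such as the liver gene Alb, had no read in any set except Apoa2, found in 1.25% of the inflamed cells of batch 2. Such genes cannot show stray keratin reads from other cells, so the shares at 1 read have no measured background. Krt18 was the luminal keratin found most widely: no kept cell had Krt8 reads without Krt18 reads, and 20.0% and 21.1% of inflamed cells and 11.3% and 27.1% of naive cells had Krt18 without Krt8. With 10 CPM as the limit, 2.5% and 3.95% of inflamed cells and 1.89% and 6.78% of naive cells had Krt8 without Krt18.

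The conditions parted when the whole set of luminal keratins was required. All 3 luminal keratins had at least 1 read in 77.5% and 72.4% of inflamed cells, against 33.96% and 47.5% of naive cells. At 10 CPM or more the shares were 46.3% (95% exact interval 35.03% to 57.8%) and 43.4% (32.1% to 55.3%) of inflamed cells, against 15.1% (6.75% to 27.6%) and 5.08% (1.06% to 14.1%) of naive cells. All 7 keratins reached 10 CPM together in 33.75% and 36.8% of inflamed cells, against 13.2% and 5.08% of naive cells. At 10 CPM or more, the intervals of inflamed and naive sets did not overlap for all 3 luminal keratins. For all 7 keratins they overlapped in batch 2 (23.55% to 45.2% of inflamed cells, 5.48% to 25.3% of naive cells). Cells of a set are not replicates, so this is no test of the conditions. Without Krt19, the shares of cells with both Krt8 and Krt18 at 10 CPM were 57.5% and 53.9% of inflamed cells and 56.6% and 35.6% of naive cells, so in batch 2 the conditions were nearly equal without Krt19. Thinning to 500000 counts left out cells with fewer, leaving 70 and 72 inflamed and 46 and 55 naive cells. All 7 keratins were found in 72.9% and 62.5% of these inflamed cells and 21.7% and 34.5% of these naive cells. Unthinned, over all kept cells, the shares were 73.75% and 71.1% of inflamed cells and 33.96% and 45.8% of naive cells. For all 3 luminal keratins in thinned cells of batch 3, the intervals at 1 read overlapped (53.1% to 76.1% inflamed, 27.02% to 54.1% naive).

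**Figure D3:**
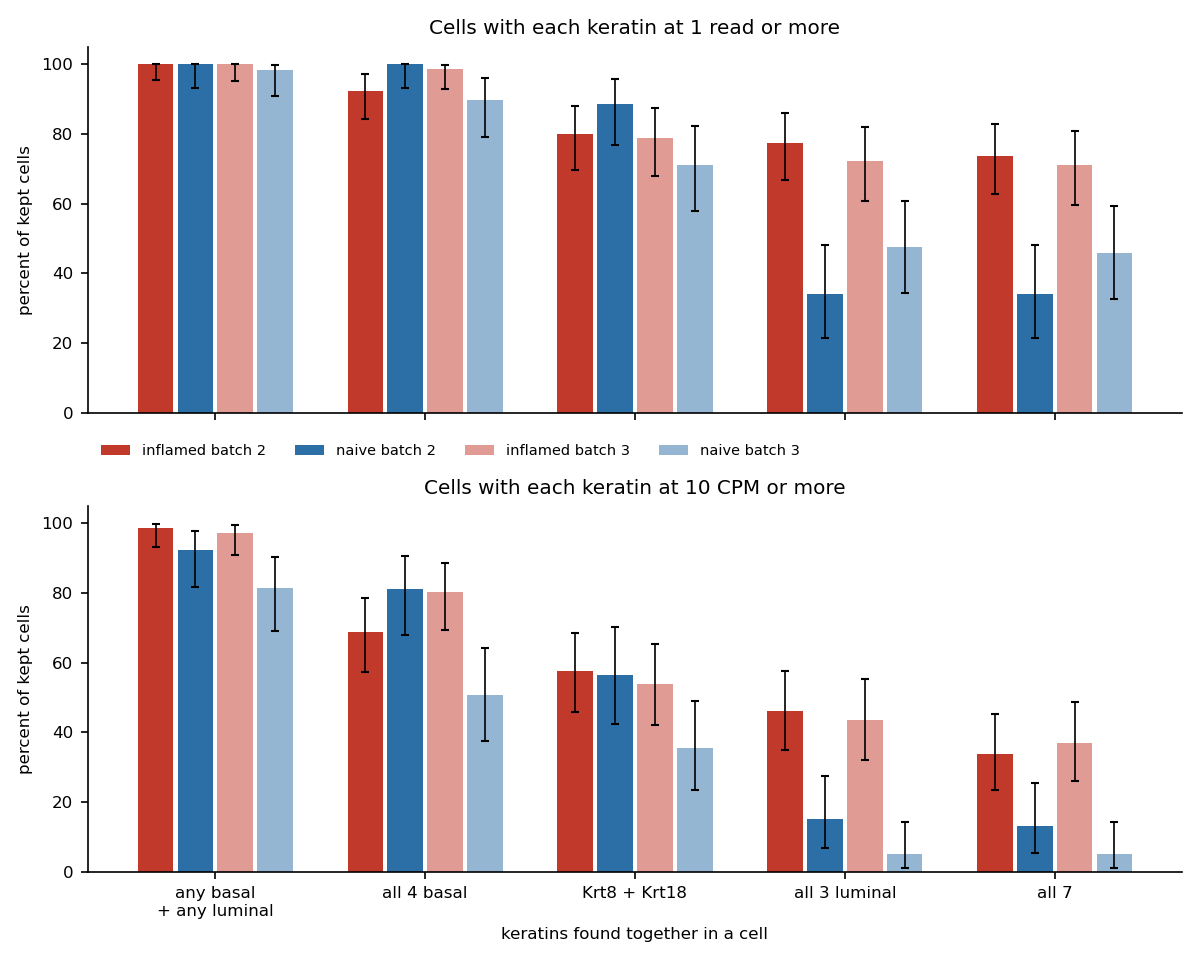
Share of kept cells (y axis, percent) in which the named keratins were found together (x axis), at 1 read or more for each (top) and at 10 CPM or more (bottom), by condition and batch. Bars are shares and lines their exact 95% intervals over cells. All 7 keratins reached 10 CPM in 33.75% and 36.8% of inflamed cells, against 13.2% and 5.08% of naive cells.

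Basal and luminal genes also met in cells with Trp63. Trp63 and Krt8 together reached 10 CPM in 21.3% and 28.9% of inflamed cells, against 47.2% and 20.3% of naive cells, so the order of the conditions was opposite in the batches. Krt17 and Krt19 reached 10 CPM together in 80% and 80.3% of inflamed cells, against 20.8% and 16.9% of naive cells. They equal or nearly equal the shares of Krt19 alone.

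The balance of the lineages within a cell was measured as the basal share, the level per kilobase of the 4 basal keratins as a percentage of that of all 7. Its median over cells was 89.7% (95% interval of the median 86.7% to 92.3%) and 88.8% (85.4% to 91.99%) in inflamed sets, against 91.8% (79.9% to 95.3%) and 87.5% (80.97% to 94.7%) in naive sets. The medians of the conditions differed by less than these intervals in both batches, with opposite signs. The interquartile range was narrower in inflamed sets (82.1% to 93.8% and 81.1% to 94.02%) than in naive sets (74.6% to 97.95% and 73% to 97.95%). Luminal keratins outweighed basal ones in 3 and 1 inflamed cells and in 0 and 4 naive cells. The balance rested on Krt15 and Krt17: between Krt5 with Krt14 and Krt8 with Krt18 alone, the median basal share was 55.4% and 63.1% in inflamed sets and 59.5% and 54.96% in naive sets. With these classical pairs, luminal keratins outweighed basal ones in 41.3% and 34.2% of inflamed cells and in 37.7% and 44.1% of naive cells.

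**Figure D4:**
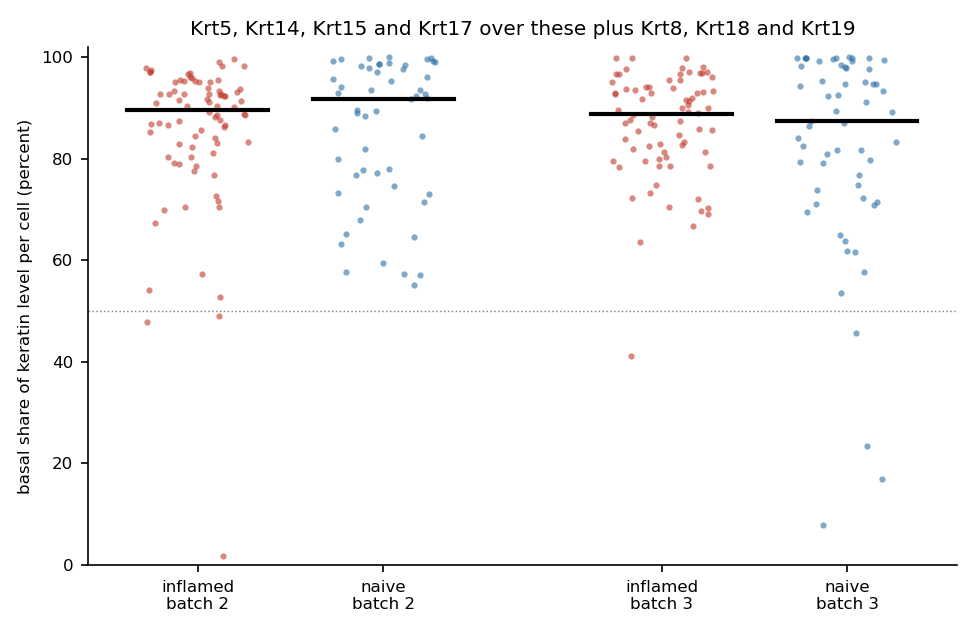
Basal share of the lineage keratin level per kilobase (y axis, percent) in each kept cell, by condition and batch. Points are cells, bars medians, and the dotted line marks 50%. The medians lie between 87.5% and 91.8% in the 4 sets, and 8 cells in all fall under the line.

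Across the 268 cells, the levels of the 9 genes were weakly related. The values are Pearson correlations of log2(CPM + 1) after centring each gene within its set, and cells of a set share their libraries' preparation and differ in depth, with which the members correlated by 0.03 to 0.24. The closest pair was Krt14 and Krt17 (0.40, from 0.21 to 0.55 in single sets), genes that share 3.22% of the windows of Krt14. Krt15 and Krt19, neighbours in the type I cluster with no window in common, followed at 0.32, with 0.39 and 0.55 in inflamed sets and 0.10 and 0.22 in naive sets. The luminal partners Krt8 and Krt18 correlated at 0.30 (from 0.09 to 0.43 in single sets), and Krt5 with Trp63 at 0.26 (from 0.19 to 0.31). The basal partners Krt5 and Krt14 reached only 0.12. Of the pairs between basal and luminal keratins, the lowest over all sets was Krt14 with Krt19 at -0.05. Single sets reached lower values, with -0.35 for Krt5 with Krt18 and -0.22 for Krt14 with Krt19 in naive cells of batch 2.

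**Figure D5:**
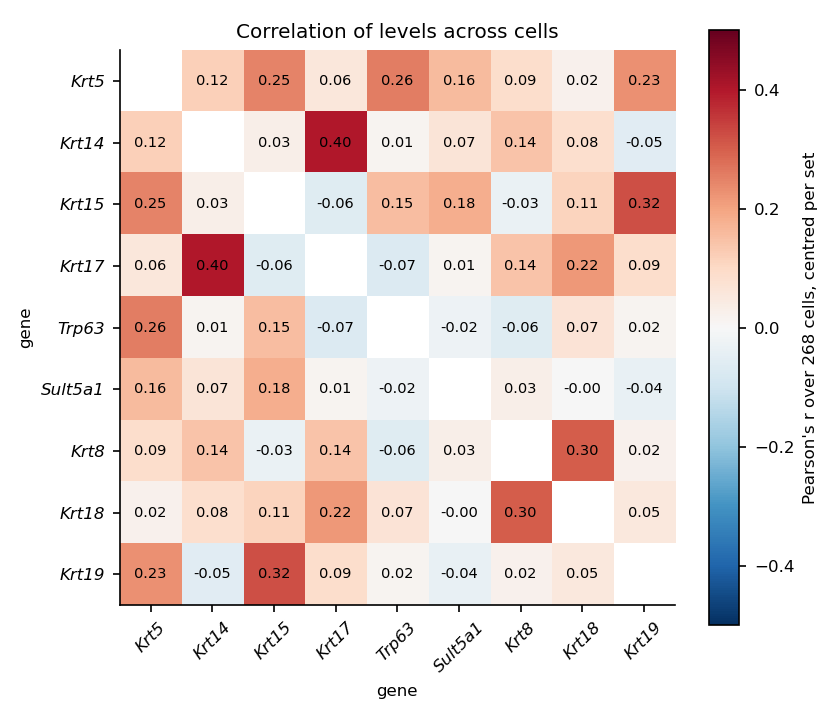
Pearson correlation of log2(CPM + 1) between each pair of the 9 genes over 268 cells, centred within each condition and batch (colour and printed value). Krt14 with Krt17 at 0.40, Krt15 with Krt19 at 0.32 and Krt8 with Krt18 at 0.30 are the highest pairs, followed by Krt5 with Trp63 at 0.26 and Krt5 with Krt15 at 0.25.

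Among 6981 genes read in at least 20% of cells, those with patterns most like a member were sought by the same measure. The values are over all kept cells, and single sets went as low as 0.05 (Krt5 with Ifitm3). Krt18 was followed most closely by the pseudogene Gm17847 (0.93), a copy with 86.5% identity over 1065 bases and a read count of 2.76% to 2.96% of that of Krt18. Rpl36a-ps3 followed at 0.30. Krt8 was most like Krt8-ps (0.84). Both pseudogenes hold 50-base windows of their parents. Krt8 came next in likeness to Krt18 (0.30), and Krt8 itself was also like Gm17847 (0.33) and Krt18. Krt19 was most like Tspan8 (0.41), a tetraspanin gene, and S100a11 (0.36), a calcium-binding protein gene, with Gm7665 at 0.34. Krt17 was most like Sdc4 (0.47), a cell surface proteoglycan gene, with Gm8399 and Gm12715 at 0.43, and Krt14 most like the actin gene Actb (0.41), Krt17 and Gm17087 (both 0.40). Sult5a1 was most like Dcn (0.41) and Sparc (0.30), both genes of matrix proteins, and Wnk1 (0.28), a kinase gene. Trp63 was most like Krt5 (0.26), Dynlt1-ps1 and Capns1 (0.23 each), Krt15 most like the ribosomal gene Rps18 (0.38), S100a11 (0.37) and Gm12854 (0.36), and Krt5 most like Ifitm3 (0.34), Pdgfa (0.31) and Col18a1 (0.30).

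Genes that work with the members were described from lists of markers and pathways, and none of their genes was called by edgeR (0% of all tested genes were). Among all tested genes, 30.9% stood above naive in each batch and 28.3% stood below. A gene that passed the low-count filter through 1 condition alone could count only on that side, as Zfp750 and Dsg3 below did for inflamed. The counts and medians given for these lists are therefore a description. Of the 7 other basal markers, all tested, 4 stood higher in both batches and 0 lower, with a median log2 fold change of 0.05. The water channel gene Aqp3 had 25 and 27.4 CPM in inflamed sums, against 1.31 and 0.548 CPM in naive sums. The hemidesmosome collagen gene Col17a1 had 235 and 461 CPM in inflamed sums, against 121.5 and 111.9 CPM in naive sums. The integrin gene Itga6, whose protein is the CD49f of the sort, had 533 and 366 CPM in inflamed sums, against 362.5 and 284 CPM in naive sums, and the laminin gene Lamb3 had a log2 fold change of 0.05 ± 0.41 (SE).

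Of the 12 other luminal markers tested, 4 were higher and 5 were lower in both batches, and their median log2 fold change was -0.28. The secretory genes Msmb (0.381 and 0 CPM inflamed, 0.939 and 2.76 CPM naive) and Pbsn (2.25 and 0 CPM inflamed, 5.46 and 1.37 CPM naive) were low throughout, as was the peptidase gene Dpp4 (0.051 and 2.63 CPM inflamed, 0.018 and 0.379 CPM naive). Defb50, a defensin gene named after its values were seen, had 77.6 and 56.3 CPM in inflamed sums, against 398 and 185.7 CPM in naive sums. Cd24a, a surface marker of luminal cells named in the same way, had 854 and 551 CPM in inflamed sums, against 128.9 and 426 CPM in naive sums. Luminal markers other than Krt19 thus lay on both sides.

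Of 19 tested targets of p63, 7 stood higher and 4 lower in both batches, and their median log2 fold change was 0.05. The integrin gene Itga3 had 232 and 201 CPM in inflamed sums, against 77.1 and 79.4 CPM in naive sums. Zfp750, a factor of keratinocyte differentiation, had 39.9 and 9.60 CPM in inflamed sums, against 0 and 0.021 CPM in naive sums. The p63 target Perp, given with the desmosome genes below, was lower in both batches.

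Desmosomes and linker proteins anchor keratin filaments at cell junctions. Of 14 such genes tested, 7 were higher and 1 was lower in both batches, with a median log2 fold change of 0.12. Of these 7, Dsg3 had no naive reads and could count only as higher. The cadherin gene Dsc3 had 24.1 and 53.1 CPM in inflamed sums, against 3.65 and 21.7 CPM in naive sums. Dsc2 had 144.8 and 67.1 CPM in inflamed sums, against 0.142 and 38.3 CPM in naive sums, and Dsg3 had 0.748 and 1.08 CPM in inflamed sums, against 0 CPM in both naive sums. Perp, a desmosome component and p63 target, had 742 and 706 CPM in inflamed sums, against 933 and 1106 CPM in naive sums.

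Of 18 transcription factors of epithelial identity, 6 were higher and 9 were lower in both batches, with a median log2 fold change of -0.49. Hoxb13, a factor of prostate identity, had 29.4 and 12.97 CPM in inflamed sums, against 119.7 and 108.6 CPM in naive sums. Grhl3 had 28.3 and 15.1 CPM in inflamed sums, against 8.77 and 0.527 CPM in naive sums, and Ovol2 did not exceed 3.05 CPM in any sum. Elf3, named after its values were seen, had 251 and 345 CPM in inflamed sums, against 35.1 and 78.7 CPM in naive sums.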

How the data were processed

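Each batch has a deposited table of raw read counts, genes by cells, from single-end reads of 50 bases per the labels. TopHat2, HTSeq, R 3.4.1, Seurat 1.4 and GRCm38.p6 are named, with no role, per the submitters' processing notes. Symbols and exon lengths came from GENCODE M21 (48058 of 48440 rows matched). Cells were kept by fixed minimums (1000 detected genes, 50000 counts), 14 being left out. Each deposited cell is 1 sample and no animal is named, so counts were summed by condition and batch. The 4 sums were tested with edgeR 4.0.16 in R 4.3.3 (quasi-likelihood test, TMM, filterByExpr, model of batch and condition, 1 residual degree of freedom, Benjamini-Hochberg). The code was also run on simulated counts with the same dispersion for all genes and no batch effect. That run does not measure the error rates of the test on these sums. The batch of the labels pairs the sums. Deviations of inflamed and naive sums from their condition means correlated at -0.01 over genes. Fold changes are inflamed over naive. Within-batch values are differences of log CPM. Per-cell CPM is scaled by the cell's total. Exact 95% intervals are Clopper-Pearson and cover counting error only, and intervals of medians are from order statistics. Alternatives used limma 3.58.1 and DESeq2 1.42.0. Transcripts of GENCODE M21 were compared in windows of 50 bases, and identity was taken from BLAST alignments. The members and gene lists were chosen with earlier results of these data known. Other genes named are the 3 most correlated with each member, keratins and other cell type markers at 10 CPM or more in a sum, and the 4 genes of each list with the largest fold change in the same direction in both batches. Dst, Defb50, Cd24a, Elf3, Sult2b1 and markers of other cell types under 10 CPM were named after their values were seen. Some genes that this rule names are not reported here.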

Additional observations from a re-analysis of the deposited data

Results flagged for a closer look

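Krt14, Krt8 and Krt18 went in opposite directions in the 2 batches, higher in inflamed cells of batch 2 and lower in those of batch 3. The log2 fold change of batch 2 minus that of batch 3 was 0.66 for Krt14, 0.69 for Krt8 and 0.69 for Krt18. With 1 sum per condition in a batch, this difference was not tested.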

How the results depend on the processing

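Krt5, Krt15, Krt17, Trp63, Sult5a1 and Krt19 kept their direction under all alternatives run. Krt14, Krt8 and Krt18 did not, and the cause was not tested. With the mean of log2(CPM + 1) over cells and limma, their log2 fold changes were 0.14, 0.49 and 0.67. In batch 2 alone they were 0.27, 0.32 and 0.17. Without the cell with most reads in each sum, Krt14 was at 0.034. Krt8 was at 0.016 with upper-quartile factors, 0.0017 with no low-count filter and 0.031 in thinned cells. Leaving out each sum in turn, which drops the batch term and assumes that a lone sum varies like the others, gave -0.29 to 0.23 for Krt14, -0.32 to 0.32 for Krt8, -0.46 to 0.15 for Krt18, -1.87 to -0.05 for Trp63, -1.08 to -0.36 for Krt5, 0.31 to 0.68 for Krt15, 0.78 to 1.97 for Krt17, -1.34 to -0.74 for Sult5a1 and 2.58 to 4.36 for Krt19. No such fit called any gene. DESeq2 called 927 genes higher and 534 lower and was the sole setting to call a member, Krt19 (log2 fold change 3.43, adjusted p = 1.13e-07), whose adjusted p ranged from 0.219 to 0.7996 elsewhere. Without the replicate block, edgeR called 0 genes and gave 3.20 for Krt19 (adjusted p = 0.297), and the block changed no call. Cells with basal and luminal keratins together fell to 92.5% (naive batch 2) and 81.4% (naive batch 3) at 10 CPM and to 86.4% (naive batch 3) at 5 reads. Basal shares from Krt5 and Krt14 against Krt8 and Krt18 were 55.4% and 63.1% in inflamed and 59.5% and 54.96% in naive sets. The number of sums limits what any test here can call.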
